A study of Mus musculus with 2 samples.

Results

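Ery 6 is the subcluster of late erythroblasts in the single-cell RNA-seq of the E12.5 mouse liver. Its cells were those that the deposited table of cells puts in the merged cluster of that name, joined to the count matrices by barcode within each library. They numbered 2394 of the 10537 kept cells, 1218 of 5480 in library 1 (22.2%, 95% confidence interval 21.1 to 23.4%) and 1176 of 5057 in library 2 (23.3%, 22.1 to 24.4%). The intervals are exact binomial (Clopper-Pearson) and cover counting error only. All cells came from 1 liver of the group WT, strain C57BL/6 in the labels and C57BL/6J in the methods, at E12.5, for which the labels name no transgene and no treatment. Its dissociated cells were sorted so that living single cells remained, and were captured in droplets in 2 technical replicates, here libraries 1 and 2. Both therefore share 1 animal, and their spread is technical. The design text of the series speaks of 2 suspensions, so the point at which the replicates were divided is stated in more than 1 way. The comparison clusters were Ery 4, the middle erythroblasts, with 1357 and 1202 cells, and Ery 3, the early erythroblasts, with 748 and 644 cells. Ery 5, the other cluster of late erythroblasts, had 497 and 590 cells and is given beside them. The clusters had been made from these same counts, so no test between them was possible, no p-value is given, and every ratio between clusters below is a description, read within each library.

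Erythroblasts are the nucleated precursors of red blood cells. As they mature, they fill with hemoglobin, leave the cell cycle, condense the nucleus before expelling it, and clear mitochondria, ribosomes and most messenger RNAs, while transcripts of globin and of a limited set of other genes persist. In the fetal liver this maturation takes place around macrophages of erythroblastic islands.

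The name of the cluster was checked against its 3 markers, which had been fixed with the cluster. Hbb-bs, an adult β-globin gene (chr7:103826534-103828096, minus strand, build GRCm38), made up 26.4% and 31.7% of all UMIs of Ery 6 in libraries 1 and 2. A UMI (unique molecular identifier) marks 1 captured RNA molecule. In Ery 3 the share was 6.91% in library 1 and 11.1% in library 2, and in Ery 4 it was 16.2% in library 1 and 22.9% in library 2. Hba-a1, an adult α-globin gene (chr11:32283511-32284465, plus strand), took 9.76% and 15.6% of UMIs, against 6.38% and 12.1% in Ery 4. Both globins had their highest share of UMIs in Ery 6 among all deposited clusters in both libraries. Per cell both were higher in Ery 5. Hbb-bs was at 1394 and 3006 UMIs per Ery 5 cell and 1235 and 2671 per Ery 6 cell, and Hba-a1 at 507 and 1455 and at 456 and 1317. Bnip3l (chr14:66985239-67008877, minus strand), which encodes a receptor that targets mitochondria for removal, was counted at 5.15 and 4.4 UMIs per cell in libraries 1 and 2, against 2.56 and 2.48 in Ery 4. Its level per cell in Ery 6 was the highest of all clusters in library 1, whereas in library 2 the endothelial cells and the megakaryocytes held more, with 4.92 and 4.46 UMIs per cell. Per 1000000 UMIs it was highest in Ery 6 in both libraries, at 1103 and 522. The markers thus went with the name. Hba-a1 and Hba-a2, like Hbb-bs and Hbb-bt, are near-identical copies whose reads can be divided wrongly, so their sums are firmer than their single values.

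The promoters of 3 genes are shown because these genes recur below, a globin, a heme enzyme and the gene with the largest ratio to Ery 4. Each holds 250 bases before and 50 after the transcription start, from RefSeq, build GRCm38.p6. Capitals mark the letters AGATAA, which GATA factors bind, CCACACCC, the CACCC box bound by KLF1, and TGAGTCA, a core bound by NFE2, on either strand. The E-box CACGTG was searched as well, and no matches in these windows overlapped. The Hbb-bs window lies at chr7:103827879-103828178 on the minus strand, the Alas2 window at chrX:150547167-150547466 on the plus strand and the Tcp11l2 window at chr10:84576697-84576996 on the plus strand.
Hbb-bs: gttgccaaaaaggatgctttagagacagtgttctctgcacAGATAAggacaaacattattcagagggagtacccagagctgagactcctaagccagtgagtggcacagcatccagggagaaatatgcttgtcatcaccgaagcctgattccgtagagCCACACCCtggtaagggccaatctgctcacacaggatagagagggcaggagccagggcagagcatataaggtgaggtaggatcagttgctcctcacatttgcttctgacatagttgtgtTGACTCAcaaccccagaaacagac
Alas2: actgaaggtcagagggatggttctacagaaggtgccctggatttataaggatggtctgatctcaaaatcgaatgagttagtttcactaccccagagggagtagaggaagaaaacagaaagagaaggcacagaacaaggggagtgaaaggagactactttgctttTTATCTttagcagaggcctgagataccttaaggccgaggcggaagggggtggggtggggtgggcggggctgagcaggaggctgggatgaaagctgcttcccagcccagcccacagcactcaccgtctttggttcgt
Tcp11l2: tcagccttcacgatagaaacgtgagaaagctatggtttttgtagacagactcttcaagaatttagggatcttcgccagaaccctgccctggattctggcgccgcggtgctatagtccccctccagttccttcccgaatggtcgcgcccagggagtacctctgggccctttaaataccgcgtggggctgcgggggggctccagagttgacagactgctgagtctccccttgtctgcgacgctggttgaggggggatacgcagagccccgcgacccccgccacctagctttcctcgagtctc
The Hbb-bs window held each of the 3 marked motifs once, the Alas2 window held AGATAA once on the opposite strand, and the Tcp11l2 window held none of the 4 motifs. Among the genes that are called retained below, 329 of 415 had a promoter in the RefSeq table, and 7.6% of these held AGATAA, against 6.14% of the promoters of all genes measured and 4.96% of those of genes called lost. For CCACACCC the shares were 3.65%, 3.74% and 3.67%, for TGAGTCA they were 3.04%, 2.74% and 1.79%, and for CACGTG they were 10.3%, 11.2% and 10.3%. Over the promoters of all 17999 genes of the files found in the table, the shares were 9.86% for AGATAA, 3.75% for CCACACCC, 4.68% for TGAGTCA and 7.97% for CACGTG. Where the table lists several starts for a gene, the first listed was used, and these matches are descriptions of letters and not of binding.

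Among the clusters Ery 3 to Ery 6, Ery 6 cells held the least RNA, and the lower level was in non-globin RNA. The mean non-globin RNA per cell was 1960.3 and 1812 UMIs in libraries 1 and 2. In Ery 4 it was 3730.2 and 4106, and in Ery 3 it was 8667 and 9080.4. Ery 6 therefore kept 52.6% and 44.1% of the non-globin RNA of Ery 4 and 22.6% and 20% of that of Ery 3. The median number of genes with a UMI was 762 and 710, against 1375 and 1409 in Ery 4 and 2156 and 2149.5 in Ery 3. Both libraries gave the same order. Globin RNA went the other way, with a mean of 2713 and 6612 UMIs per cell in Ery 6 and 2132 and 5491 in Ery 4, a ratio of 1.27 and 1.2. Of these 4 clusters it was highest in Ery 5, with 3005 and 7281, so Ery 6 had less globin RNA per cell than Ery 5. The 4 adult globin genes nevertheless took a larger share of UMIs in Ery 6, with medians over cells of 57.1% and 78.5% against 50.4% and 72.6% in Ery 5. The quartile ranges of Ery 6 and Ery 4 were apart in non-globin RNA and overlapped in globin RNA. The upper quartile of non-globin UMIs in Ery 6 was 2255 and 2068, below the lower quartile of Ery 4 at 2805 and 3037, whereas the lower quartile of its globin UMIs, 2097 and 5133, was below the upper quartile of Ery 4, 2675 and 6583. The tails overlapped in non-globin RNA too. The 90th percentile of Ery 6 was 2818 and 2648, above the 10th percentile of Ery 4 at 1678 and 2422.

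**Figure D1:**
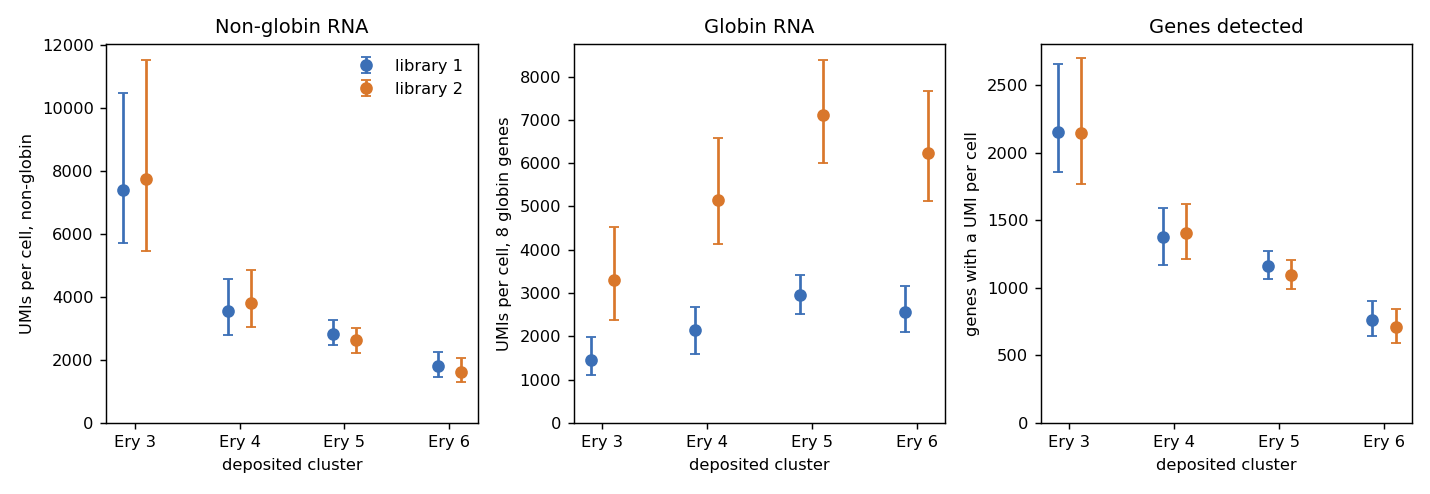
Non-globin UMIs, globin UMIs and genes with a UMI per cell (y axes) in the deposited clusters Ery 3 to Ery 6 (x axis), with points at the median over cells and bars from the lower to the upper quartile, for library 1 (blue) and library 2 (orange). Non-globin RNA and the number of genes are lowest in Ery 6 in both libraries, while globin RNA is highest in Ery 5 and differs between the libraries.

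The libraries differed in globin RNA and little in other RNA. Adult globin RNA per Ery 6 cell was 2.46 times as high in library 2 as in library 1, and the same ratio was 2.61 in Ery 4 and 2.25 in Ery 3. For non-globin RNA the ratio in Ery 6 was 0.924, and for Hbb-bh1, an embryonic globin gene, it was 1.01. In free RNA, measured in barcodes with 1 to 50 UMIs, the adult globin share of UMIs was 19.3% in library 1 and 37.9% in library 2. Genes were therefore compared between clusters per 1000000 non-globin UMIs (non-globin CPM), that is without Hba-a1, Hba-a2, Hba-x, Hbb-bs, Hbb-bt, Hbb-bh1, Hbb-bh2 and Hbb-y. Summed over cells, Ery 6 held 5692370 UMIs in library 1, of which 2387597 were non-globin, and 9906863 in library 2, of which 2130618 were non-globin. The UMI cut differed between the libraries as well. The lowest kept Ery 6 cell had 552 UMIs in library 1 and 4410 in library 2, and 50.4% of the Ery 6 cells of library 1, but 21.4% of its Ery 4 cells and 2.94% of its Ery 3 cells, lay under 4387 UMIs, the lowest count of any kept cell of library 2. Such a cut can set the share of Ery 6 among kept cells. Among the kept cells 31 barcodes occurred in both libraries, of which none belonged to Ery 6 in both.

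Genes were called retained where their non-globin CPM was at least 2-fold higher in Ery 6 than in the reference cluster in each library, and lost where it was at least 2-fold lower in each. With at least 50 UMIs in both clusters together in each library, 5768 genes could be compared with Ery 4, and 415 (7.19%) were retained and 1334 (23.1%) lost. Against Ery 3, 779 (12.3%) of 6347 were retained and 2406 (37.9%) lost. No gene was called in opposite directions in these comparisons, which share the Ery 6 cells, and 392 genes were retained and 1087 lost in both. The median log2 ratio over all genes was -0.51 and -0.52 against Ery 4 and -0.77 and -0.75 against Ery 3. The 10 most abundant non-globin genes held 18.6% and 17.9% of non-globin UMIs in Ery 6, against 13.4% and 11.7% in Ery 4. On a scale where the median gene has a ratio of 1, 827 genes were retained and 539 lost against Ery 4 and 1399 and 926 against Ery 3. As a share of all UMIs, globins included, 122 were retained and 3127 lost against Ery 4 and 177 and 4565 against Ery 3. With a free RNA profile equal to 10% of the UMIs of each cluster subtracted, 39.1% of 5028 genes were lost against Ery 4. The 10% was of all UMIs, of which globins held 58.1% and 78.5% in Ery 6 and 36.4% and 57.2% in Ery 4. The subtraction therefore took a larger part of the non-globin UMIs of Ery 6, and its effect on the calls is partly built in. Below, a ratio without further words is that of non-globin CPM in Ery 6 over Ery 4 in libraries 1 and 2.

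Levels per cell give the same data on another scale. The median gene kept 36.9% and 30.8% of its UMIs per cell from Ery 4 to Ery 6. The UMIs per cell of 384 genes (6.66%) were not lower in Ery 6 than in Ery 4 in either library. Since an Ery 6 cell held less non-globin RNA, such a gene had to have a high ratio of non-globin CPM too, and these counts add no separate support to the calls. For 90 genes the UMIs per cell were at least 2-fold higher. Against Ery 3, 266 genes (4.19%) were not lower per cell.

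**Figure D2:**
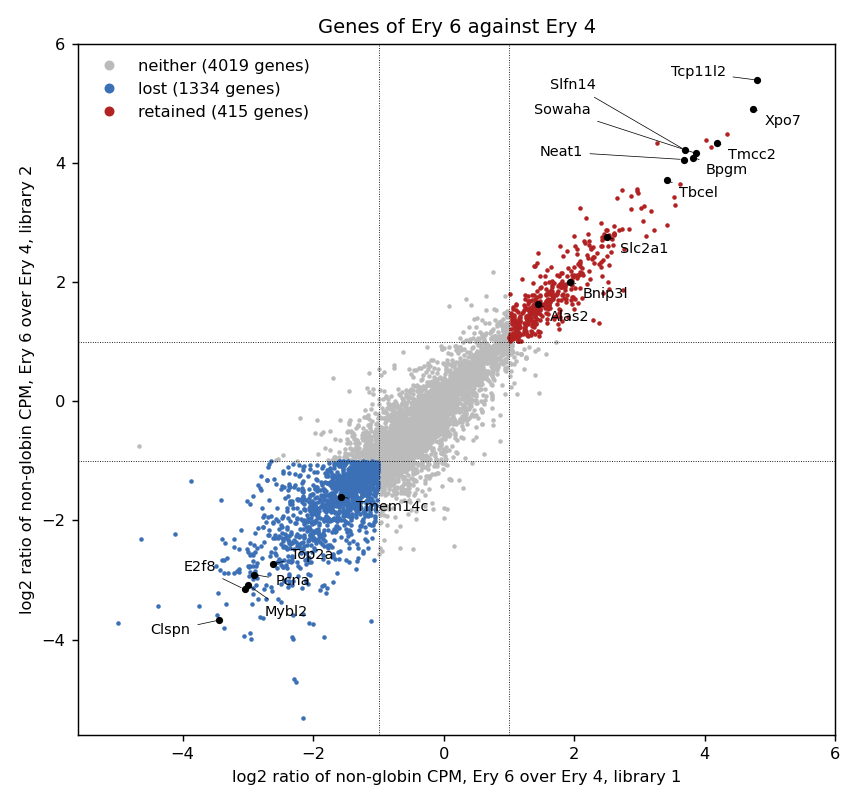
Log2 ratio of non-globin CPM in Ery 6 over Ery 4 in library 1 (x axis) and in library 2 (y axis), 1 point per gene with at least 50 UMIs in both clusters together in each library, and dotted lines at 2-fold. Red points are the 415 retained genes, blue points the 1334 lost genes and gray points the rest, and some of the genes described in the text are marked in black. Genes without a UMI in Ery 6 in a library (2 genes) have no ratio and are not drawn.

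Among the genes with the largest ratios to Ery 4, Tcp11l2 and Xpo7 were at low levels up to Ery 5. Tcp11l2 (chr10:84576626-84614359, plus strand) was counted at 0.148 and 0.099 UMIs per cell in Ery 4, 0.213 and 0.139 in Ery 5 and 2.17 and 1.84 in Ery 6. Its ratio of non-globin CPM to Ery 4 was 27.9 (24.2 to 32.4) and 42 (34.9 to 51), with 95% intervals for counting error. Xpo7 (chr14:70654246-70766628, minus strand), a nuclear exporter known for its part in nuclear condensation of erythroblasts, had 0.229 and 0.223 UMIs per cell in Ery 4, 0.352 and 0.246 in Ery 5 and 3.23 and 2.96 in Ery 6, with ratios of 26.8 (23.9 to 30.2) and 30 (26.5 to 34.1). For both genes the step from Ery 5 to Ery 6 was larger than those before it. Tmcc2 (chr1:132356315-132391281, minus strand), a transmembrane protein of late erythroid cells, was the most abundant of the genes with the largest ratios. It was at 14.3 and 13.9 UMIs per Ery 6 cell and 1.49 and 1.55 per Ery 4 cell, and was found in 79.7% and 75.6% of Ery 5 cells. Bpgm (chr6:34476207-34505613, plus strand) encodes the enzyme that makes 2,3-bisphosphoglycerate, which lowers the oxygen affinity of adult hemoglobin, and had 3.35 and 3.16 UMIs per Ery 6 cell, 0.449 and 0.419 per Ery 4 cell and 0.676 and 0.637 per Ery 3 cell. Sowaha and Slfn14, an endoribonuclease that acts on ribosomes and is expressed in platelets and erythroid cells, had ratios of 14.6 and 17.9 and of 13 and 18.6. The long noncoding nuclear RNA Neat1 had a ratio of 12.8 and 16.7 from a low level of 0.323 and 0.337 UMIs per Ery 6 cell.

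The other leading genes were Tbcel, a tubulin chaperone-like protein, with a ratio of 10.7 and 13.1, and Ube2h, a ubiquitin-conjugating enzyme, with 11.7 and 9.79. Bsdc1 followed with 9.04 and 9.11 and Fbxo30, a substrate receptor of a ubiquitin ligase, with 8.39 and 9.76. The kinase Dyrk3 was at 8.33 and 8.2 and Ubap1, a subunit of the ESCRT machinery for sorting ubiquitinated cargo, at 7.9 and 11.3. The lysosomal β-glucuronidase Gusb was at 7.77 and 11.6 and the proline dipeptidase Pepd at 7.12 and 7.47. These 15 genes together made up 1.64% and 1.67% of non-globin UMIs of Ery 6 in libraries 1 and 2, 0.251% and 0.221% of those of Ery 5, 0.111% and 0.0971% of those of Ery 4 and 0.151% and 0.156% of free RNA.

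After thinning every cell to 3400 UMIs, with 176 and 0 shallower Ery 6 cells left out, a UMI of Xpo7 was found in 71% and 54.3% of Ery 6 cells in libraries 1 and 2 (95% confidence intervals 68.2 to 73.8% and 51.4 to 57.2%). The shares were 8.12% and 5.16% in Ery 4 and 9.48% and 11.5% in the hematopoietic stem and progenitor cells, which served as a comparison. Thinning matched all UMIs and not non-globin UMIs. Globins took 58.1% and 78.5% of UMIs in Ery 6 and 1.59% and 2.94% in the stem and progenitor cells, so the latter kept more non-globin UMIs. Without thinning, the shares were 75.4% and 71.8% in Ery 6, at median depths of 4378 and 7882 UMIs, and 40.8% and 32.7% in the stem and progenitor cells, at 16053 and 14956 UMIs. For Tcp11l2 the thinned shares were 68.1% and 46.9% in Ery 6, 5.92% and 2.58% in Ery 4 and 4.74% and 6.25% in the stem and progenitor cells (unthinned, 75% and 73.1% in Ery 6). The thinned cells of library 2 carried more globin and so fewer other UMIs, and the level of its shares cannot be set against that of library 1.

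**Figure D3:**
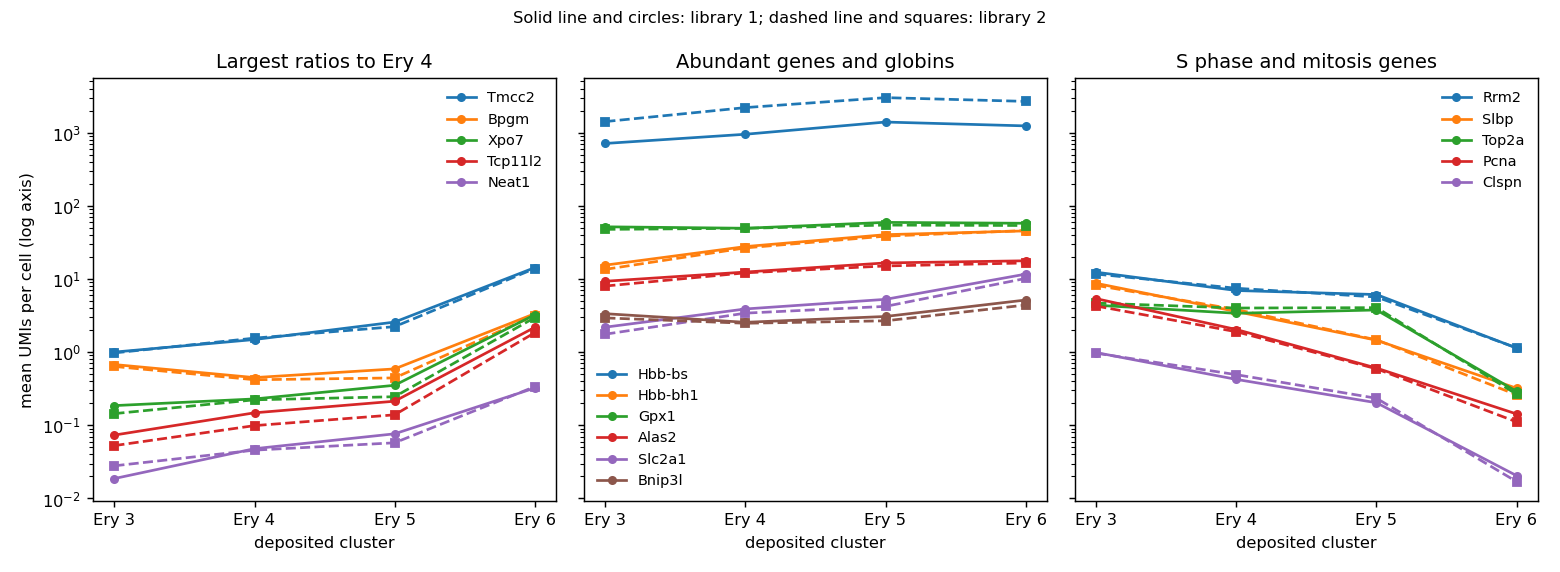
Mean UMIs per cell (y axis, log scale) of genes with large ratios to Ery 4 (left), of abundant genes and globins (middle) and of S phase and mitosis genes (right) in the deposited clusters Ery 3 to Ery 6 (x axis), with library 1 as solid lines and library 2 as dashed lines. Tcp11l2, Xpo7, Bpgm and Tmcc2 are far higher in Ery 6 than in Ery 5, Alas2 and Hbb-bh1 are higher in each later cluster, and Top2a is as high in Ery 5 as in Ery 4 and low in Ery 6.

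The most abundant transcripts of Ery 6 were the 4 adult globins, followed by Gpx1, then Ftl1, Fth1 and Hbb-bh1 in an order that differed between the libraries, and Malat1. Gpx1, which encodes glutathione peroxidase, was counted at 57.7 and 53.7 UMIs per Ery 6 cell and at 49.3 and 49.2 per Ery 4 cell, so that its level per cell was slightly higher than in Ery 4 (but not than in Ery 5, with 59.3 and 54.5) while its share of non-globin RNA was 2.23 and 2.47 times as high. Ftl1 and Fth1, the light and heavy chains of ferritin, which stores iron, were lower per cell in Ery 6, at 54.1 and 45.4 UMIs against 73.2 and 68.7 in Ery 4 for Ftl1 and 50.2 and 44.3 against 74 and 74.3 for Fth1. The peroxiredoxin gene Prdx2 was lower per cell as well, at 37.5 and 34.9 against 44.7 and 46.5. Malat1, a long noncoding RNA of the nucleus, was at 38.8 and 36.5 UMIs per Ery 6 cell, above Ery 4 with 27.8 and 27.3 and below Ery 5 with 49.3 and 43.6.

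Among the embryonic globins, Hbb-bh1 alone was abundant. It was counted at 45.4 and 45.9 UMIs per Ery 6 cell, 27.7 and 26.6 per Ery 4 cell and 15.4 and 13.5 per Ery 3 cell. Hba-x was at 0.435 and 0.395 UMIs per Ery 6 cell and Hbb-y at 4.26 and 3.49. In the deposited cluster 15, which held all 3 embryonic globins and is primitive erythroblast-like, Hbb-y reached 2975 and 3324 UMIs per cell and Hbb-bh1 146 and 183. There were 10.6 and 13.2 Hbb-bh1 UMIs per Hbb-y UMI in Ery 6, 0.0489 and 0.055 in cluster 15 and 0.236 and 0.251 in free RNA. Ery 6 thus had far more Hbb-bh1 per Hbb-y than either of these. This was not particular to Ery 6, since the same ratio was 8.2 and 11.8 in Ery 5 and 3.18 and 7.9 in Ery 4. Whether reads of the adult β-globins were counted for Hbb-bh1 was not tested.

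Of the 22 gene lists, the ubiquitin and mitophagy lists had the highest median ratios to Ery 4. The adult globin list, of which 4 of 5 genes were found, and the embryonic globin list of 3 genes stood outside the denominator and were not counted. On the scale of all UMIs every log2 ratio is lower by the same amount, 0.60 in library 1 and 0.99 in library 2, and with the median gene at 1 it is higher by 0.51 and 0.52. The medians of the ubiquitin and mitophagy lists were above 0 on all 3 scales, at 0.68 and 0.02 in library 2 on that of all UMIs. Those of the S phase, mitosis, ribosomal protein, translation factor, mRNA decay and mitochondrially encoded lists were below 0 on all 3, whereas the sign of every other list median depended on the scale in at least 1 library. With the median gene at 1, however, the mRNA decay list was at -0.0044 in library 1. On that scale the mitochondrially encoded list was at -0.0188 in library 2, so both were there about equal to the median gene. Within a list, the highest and lowest ratios are by the mean of the log2 ratios of both libraries, and its counts against Ery 4 stand beside 7.19% retained and 23.1% lost over all genes, so that 1 to 3 lost genes in a list of 9 to 14 are no result about the list. The lists were drawn up from textbook roles with earlier results of these data known. Of 14 genes for ubiquitin and protein turnover in late erythroblasts, 9 were retained against Ery 4 and none was lost, with a median log2 ratio of 1.57 in library 1 and 1.67 in library 2, beside -0.51 and -0.52 over all genes. The 9 were Ube2o, Ube2l6, Ube2h, Ubb, Fbxo30, Trim58, Trim10, Mkrn1 and Rnf10. Ube2o, a ligase that marks ribosomal proteins for removal in reticulocytes, had a ratio of 6.1 and 7.67. Mkrn1, a ring-finger ligase, was counted at 6.26 and 5.58 UMIs per Ery 6 cell and 1.94 and 1.81 per Ery 4 cell. Trim58, which is known for its role in enucleation, had a ratio of 7.77 and 11.8 at only 0.0452 and 0.0434 UMIs per cell. Ubb, a polyubiquitin gene, had a ratio of 3.68 and 3.91, and its level in Ery 6 differed between the libraries (9871 and 5146 non-globin CPM). Cdc34, another ubiquitin-conjugating enzyme, had the lowest ratio of the list (0.687 and 0.802).

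Of 16 mitophagy and autophagy genes, 14 were measured, 7 were retained and none was lost against Ery 4 (median log2 ratio 1.04 and 1.02). The mitochondrial receptor Bnip3l had ratios of 3.84 (3.68 to 4) and 4.02 (3.84 to 4.21). Pink1, a kinase that marks damaged mitochondria, had 4.91 and 5.01, Sqstm1, a cargo receptor, 3.9 and 4.35 and Ulk1, the kinase that starts autophagy, 4.05 and 6.1. Ulk1 was sparse, at 0.121 and 0.141 UMIs per cell. The other retained members were the LC3 family genes Map1lc3b, Gabarapl1 and Gabarapl2, with ratios from 2.7 to 3.02. Bnip3, the close relative of Bnip3l, was at 0.728 and 0.874, and Atg5, which is needed for the conventional pathway, had the lowest ratio by that mean, 0.878 and 0.62, although Bnip3 and Optn were lower in library 1.

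Membrane genes were mostly called neither retained nor lost against Ery 4 and mostly retained against Ery 3. Of 20 measured genes of the membrane skeleton and surface, 2 were retained and none was lost against Ery 4, while 15 were retained and 1 was lost against Ery 3, beside 12.3% and 37.9% over all genes. The median log2 ratio was 0.46 and 0.52 against Ery 4 and 1.28 and 1.57 against Ery 3. These are shares of non-globin RNA. Per cell the 20 genes summed to fewer UMIs in Ery 6, with 56.5 and 50, than in Ery 4, with 73 and 70.6, or Ery 3, with 81.5 and 69.6. Epb41, which encodes protein 4.1, was at 1.54 and 1.34 UMIs per Ery 6 cell and 0.959 and 0.868 per Ery 4 cell. The other retained gene was Epb42, with a ratio of 2.18 and 2.37. Aqp1, the water channel, had the lowest ratio (0.53 and 0.515).

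Heme synthesis was uneven across its enzymes. All 11 genes were measured, of which 2 were retained and 1 was lost against Ery 4, with a median log2 ratio of 0.18 and 0.23. Alas2, the first and rate-limiting enzyme in erythroid cells, was counted at 17.7 and 16.5 UMIs per Ery 6 cell, 12.4 and 12.1 per Ery 4 cell and 9.3 and 8 per Ery 3 cell, so that it was above both in both libraries, with 16.6 and 15 in Ery 5. Fech, the last enzyme, was at 10.2 and 10 UMIs per Ery 6 cell and 8.02 and 8.78 per Ery 4 cell, and was no higher than in Ery 5, with 10.3 and 10.3. Tmem14c, a porphyrin transporter of the inner mitochondrial membrane, was lost, with 32.9 and 31.7 UMIs per cell in Ery 3, 10.5 and 12.7 in Ery 4 and 1.85 and 1.84 in Ery 6. Of 10 measured iron genes, 2 were retained and 2 lost, the latter near the 23.1% over all genes. The mitochondrial iron importer Slc25a37 (mitoferrin 1) had a ratio of 2.05 and 2.32, although per cell it was at 11.5 and 10.9 UMIs in Ery 6 and 13.4 and 12.4 in Ery 5, and Ncoa4, the receptor that takes ferritin to autophagy, 2.54 and 2.98. The lost genes were the ferrireductase Steap3, with 0.414 and 0.424, and the iron chaperone Pcbp1, with 0.401 and 0.404. The iron list had a median log2 ratio of -0.12 and -0.08.

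Of 9 measured genes of antioxidant defense and heme breakdown, Gpx1 and Cat were retained and Blvra was lost (median log2 ratio 0.18 and 0.27). Cat, which encodes catalase, was at 2.02 and 1.83 UMIs per Ery 6 cell and 0.794 and 0.798 per Ery 4 cell. Blvra, a biliverdin reductase, was at 0.0731 and 0.0833 and 0.41 and 0.458. Of 13 measured glycolysis genes, Bpgm and Slc2a1 were retained, and Pfkl and Tpi1 were lost (median log2 ratio -0.18 and -0.10). Slc2a1, the glucose transporter GLUT1, was counted at 2.19 and 1.76 UMIs per cell in Ery 3, 3.89 and 3.41 in Ery 4 and 11.6 and 10.2 in Ery 6, where it was among the abundant transcripts. Tpi1, triosephosphate isomerase, had a ratio of 0.432 and 0.43.

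**Figure D4:**
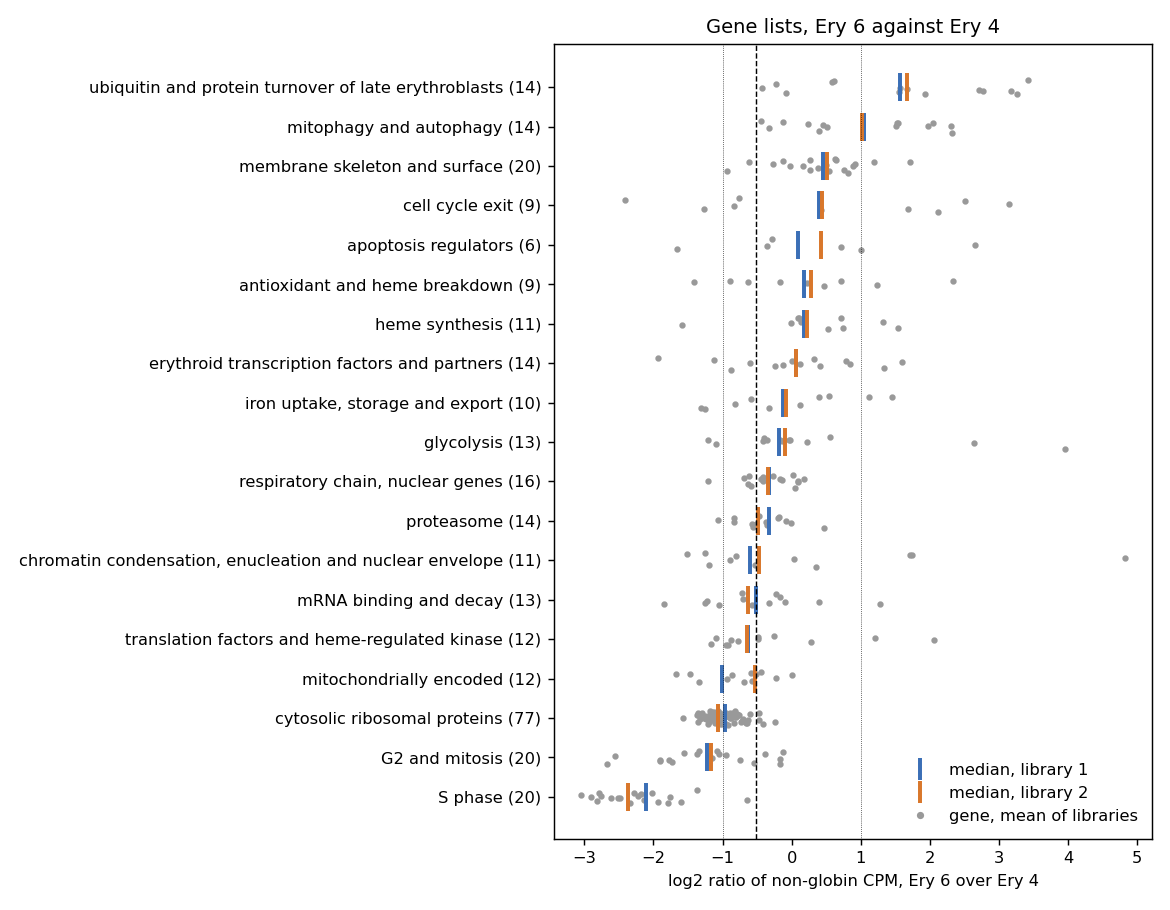
Log2 ratio of non-globin CPM in Ery 6 over Ery 4 (x axis) for the gene lists with at least 6 measured members (y axis, with their number). Gray points are genes (mean of the libraries), colored ticks the list medians in library 1 (blue) and library 2 (orange), the dashed line the median of all 5768 genes and dotted lines 2-fold. The ubiquitin and mitophagy lists lie highest and the S phase list lowest.

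The erythroid transcription factors were spread around the value of equal share. Of 14 factors and partners, 2 were retained and 2 were lost, with a median log2 ratio of 0.06 and 0.07. Foxo3, a factor of late erythroid maturation, had a ratio of 3.01 and 3.03 and Nfe2, a factor of globin transcription, 2.39 and 2.7. Gata1, the master factor of the lineage, was at 0.849 and 0.84 and Klf1 at 0.891 and 0.936. Bcl11a, the repressor of embryonic β-like globins, had the lowest ratio, 0.239 and 0.288, and was counted at 1.12 and 1.16 UMIs per cell in Ery 3, 0.209 and 0.207 in Ery 4 and 0.0263 and 0.0264 in Ery 6. The other lost gene was the cofactor Ldb1, with 0.463 and 0.454. Lmo2 was the most abundant member, at 3.1 and 2.43 UMIs per Ery 6 cell. Of the 10 early progenitor genes only Myc and Runx1 could be compared with Ery 4, and neither was called, with 1.92 and 1.09 for Myc and 1.22 and 1.26 for Runx1.

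Of 9 measured genes for leaving the cell cycle, Cdkn1b, Btg1, Ccng2 and Gadd45a were retained and Cdkn2c and Rb1 lost, the latter near the 23.1% over all genes (median log2 ratio 0.40 and 0.44). Cdkn1b, the cell cycle inhibitor p27, had a ratio of 3.98 and 4.78, and Cdkn2c, the inhibitor p18, 0.172 and 0.204. Gadd45a, a stress-induced growth arrest gene, was at 6.54 and 4.59 UMIs per Ery 6 cell and 2.35 and 1.71 per Ery 4 cell. Ccng2, an atypical cyclin, had a ratio of 8.16 and 9.51 but was about as high in Ery 5, with 0.197 and 0.198 UMIs per cell, as in Ery 6, with 0.209 and 0.164. Of 6 measured apoptosis regulators, Bcl2l1, which encodes the survival protein BCL-XL, was retained with 6 and 6.59, and Bad was lost with 0.299 and 0.333 (median log2 ratio 0.09 and 0.43). Of 11 measured genes of chromatin condensation, enucleation and the nuclear envelope, Xpo7, Riok3 and Wdr26 were retained and Hdac2, Lmnb1 and Tmpo lost (median log2 ratio -0.61 and -0.47). Tmpo, a lamina-associated protein, was counted at 3.73 and 3.12 UMIs per cell in Ery 5 and 0.475 and 0.432 in Ery 6.

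Nearly all genes of the S phase list, which holds genes of DNA replication, were lost. Of 20 S phase genes, 19 were lost against Ery 4 and 20 against Ery 3, beside 23.1% and 37.9% over all genes, with a median log2 ratio to Ery 4 of -2.11 and -2.36. Pcna (chr2:132249162-132253314, minus strand), the sliding clamp of DNA polymerases, was counted at 5.37 and 4.26 UMIs per cell in Ery 3, 2.04 and 1.9 in Ery 4, 0.606 and 0.592 in Ery 5 and 0.143 and 0.111 in Ery 6. Its ratio to Ery 4 was 0.134 (0.114 to 0.156) and 0.133 (0.111 to 0.159). Clspn, a replication checkpoint adaptor, had the smallest ratio of the named genes, 0.0922 (0.0592 to 0.137) and 0.0784 (0.0475 to 0.122), from 25 and 20 UMIs in all Ery 6 cells. Among the 15 lost genes with the smallest ratios, taken at 100 non-globin CPM or more in Ery 4, were also E2f8, a repressor of cell cycle genes (0.12 and 0.112), Mybl2, a cell cycle transcription factor (0.126 and 0.118), and the cyclin E genes Ccne2 (0.101 and 0.136) and Ccne1 (0.171 and 0.154). The DNA ligase Lig1 (0.111 and 0.139), the helicase subunit Mcm3 (0.136 and 0.147), the thymidine kinase Tk1 (0.158 and 0.165) and the histone mRNA binder Slbp (0.171 and 0.155) belonged to the same group of 15. Slbp was lower at each step, with 8.71 and 8.16 UMIs in Ery 3, 3.58 and 3.82 in Ery 4, 1.45 and 1.47 in Ery 5 and 0.321 and 0.261 in Ery 6. Of the S phase list Chaf1b had the lowest ratio (0.108 and 0.136), Rrm2, a subunit of ribonucleotide reductase, was the most abundant (1.14 and 1.14 UMIs per Ery 6 cell), and Cdca7, the gene not called, had 0.366 and 1.13 from few UMIs.

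The sums of the mitosis and the S phase genes put the clusters in different orders. Of 20 G2 and mitosis genes, 11 were lost against Ery 4 and none was retained, with a median log2 ratio of -1.23 and -1.17, while against Ery 3 6 were lost and 1 was retained, both below the shares of 37.9% and 12.3% over all genes. Summed over the list, there were 57.7 and 53.9 UMIs per cell in Ery 3, 45.5 and 45.6 in Ery 4, 72.6 and 61.7 in Ery 5 and 13.7 and 11.5 in Ery 6. For the S phase list the sums were 62.3 and 59.9 in Ery 3, 23.8 and 25.4 in Ery 4, 13 and 12.3 in Ery 5 and 3.06 and 2.73 in Ery 6. Of these 4 clusters, the mitosis sum was thus highest in Ery 5, and that of S phase was highest in Ery 3 and lower at each step. Ube2c alone was higher in Ery 5 than in Ery 3 by more UMIs per cell than the whole mitosis list. Top2a, which untangles DNA at mitosis, was at 3.77 and 4.05 UMIs per Ery 5 cell and 0.291 and 0.266 per Ery 6 cell. The mitotic kinase gene Aurkb went from 0.92 and 0.717 to 0.069 and 0.0519, and Fbxo5, Pbk and Mxd3, the remaining genes of the 15, from 1.8 and 1.51 to 0.0739 and 0.0867, from 0.757 and 0.649 to 0.032 and 0.04 and from 0.622 and 0.534 to 0.0312 and 0.0281. Ube2c, which works with the complex that ends mitosis, was the gene retained against Ery 3 and had the most UMIs of the list in Ery 6, at 5.19 and 4.11 per cell, against 25.1 and 19.8 in Ery 5 and 9.96 and 8.92 in Ery 3. Ccnb2 had the highest ratio of the list to Ery 4 (0.924 and 0.91).

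Transcripts of ribosomal proteins took a smaller share in Ery 6 than in Ery 4 and Ery 3, with the lowest share in Ery 5. Cytosolic ribosomal proteins took 23.5% and 27.3% of non-globin UMIs in Ery 3, 14.1% and 18.3% in Ery 4, 5.65% and 7.29% in Ery 5 and 7.16% and 8.68% in Ery 6. Of 77 measured genes, 34 were lost against Ery 4 and 72 against Ery 3, and none was retained in either comparison, beside 23.1% and 37.9% lost over all genes (median log2 ratio to Ery 4 -0.97 and -1.07). Rps18 had the lowest ratio to Ery 4 (0.386 and 0.29) and Rpl41 the highest (0.854 and 0.833), with Rps2 the most abundant (3.39 and 5.67 UMIs per Ery 6 cell). Ribosomal protein genes have many processed copies in the genome, and the libraries differed in them, so their levels are uncertain. Of 12 translation factors, Pabpc1 and the heme-regulated kinase Eif2ak1 were retained and Eef1b2 and Eif3a lost (median log2 ratio -0.64 and -0.65). Pabpc1, which binds poly(A) tails, was counted at 14.1 and 11.1 UMIs per Ery 6 cell and 6.53 and 5.97 per Ery 4 cell, while its relative Pabpc4 was at 0.636 and 0.69 and 1.31 and 1.66. Of 13 measured genes of mRNA binding and decay, 1 was retained against Ery 4 (median log2 ratio -0.51 and -0.63). Cnot1, Cnot7 and Dcp2, of the deadenylation and decapping machinery, were lost, which is the share of 23.1% found over all genes. Dcp2, the decapping enzyme, had the lowest ratio (0.254 and 0.306).

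None of 16 nuclear genes of the respiratory chain was retained and 1, Cox5a, was lost (0.445 and 0.416), with a median log2 ratio of -0.32 and -0.35. Cox6c had the highest ratio of them (1.07 and 1.21), and Atp5b, a subunit of ATP synthase, was the most abundant, at 3.84 and 4 UMIs per cell. Of 12 measured mitochondrially encoded genes, 3 NADH dehydrogenase subunits were lost, close to the 23.1% over all genes, among them mt-Nd2 with the lowest ratio (0.292 and 0.335), while mt-Co1 had the highest (0.941 and 1.08), and the most abundant, mt-Co3, was at 18 and 18 UMIs per Ery 6 cell. The list had a median ratio of 0.499 and 0.69, and together these genes took 3.65% and 3.8% of non-globin UMIs in Ery 6 and 6.02% and 5.2% in Ery 4. In Ery 5 their share was already low, at 3.35% and 3.7%. Of 14 proteasome subunits, 1, Psma1, was lost (0.497 and 0.461), and Psma2 had the highest ratio (1.36 and 1.39), with a median log2 ratio over the list of -0.33 and -0.48.

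Ery 6 was itself a merger of 4 of the deposited finer clusters, whose column is named for another clustering resolution than the methods give. Clusters 3, 5, 8 and 12 held 435, 329, 250 and 204 cells in library 1 and 368, 359, 244 and 205 cells in library 2. Cluster 3 had the most non-globin RNA (median 2158 and 2069 UMIs) and the lowest share of the 15 leading retained genes (0.781% and 0.671% of non-globin UMIs). Tmem14c was 2.79 and 3.92 times as high there as in the other Ery 6 cells, and Xpo7 0.205 and 0.165 times. Cluster 5 had the highest share of the 15 genes, 3.1% and 3.15%, with medians of 1458 and 1368 non-globin UMIs and 63.5% and 82.8% adult globin UMIs, and was led by Lgmn, a lysosomal protease (3.88 and 3.62 times), Xpo7 (3.19 and 3.21) and Sowaha (2.9 and 2.75). Cluster 8 was led by the mitosis genes Ect2 (3.53 and 4.17 times) and Kif23 (3.29 and 4.15), of which cytokinesis needs both, and by the lamin gene Lmnb1 (3.29 and 2.95). Its G2 and mitosis genes took 1.37% and 1.16% of non-globin UMIs. The shares were 0.73% and 0.749% in cluster 3, 0.426% and 0.38% in cluster 5 and 0.277% and 0.251% in cluster 12. Cluster 12 was led by Gusb (2.35 and 2.36 times) and Lpin2, a phosphatidate phosphatase (2.21 and 2.17), with Ccnb1 at 0.139 and 0.132 times the level of the other cells. These genes served to define the clusters and only describe them.

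The spread of RNA content inside Ery 6 gave a second view. The cells of each library were put in 4 equal groups by their non-globin UMIs, whose medians ran from 1246 and 1117 in the lowest to 2652 and 2512 UMIs in the highest. Between the lowest and the highest group, 2210 genes could be compared, of which 8 (0.362%) were at least 2-fold higher and 77 (3.48%) at least 2-fold lower in non-globin CPM in the RNA-poor cells in each library. The 8 were Bpgm, Fam220a, Lgmn, Mettl20, Rec114, Sowaha, Trim56 and Xpo7, and all had been called retained against Ery 4. With 2 groups in place of 4, far fewer genes passed in either direction, and these counts are given with the alternatives below. Bpgm was at 2583 and 2876 non-globin CPM in the RNA-poor and 1216 and 1128 in the RNA-rich cells. Per cell it was lower in the RNA-poor cells, at 3.07 and 3.09 UMIs against 3.68 and 3.27. In library 2 all 8 genes were lower per cell in the RNA-poor cells, and in library 1 all but Lgmn, Mettl20 and Trim56. The 8 were thus higher as a share of non-globin RNA and mostly not per cell. Of the 77 genes, 49 had been called lost against Ery 4 and none retained, where 287 of the 2210 genes had been called lost and 318 retained, and both comparisons share the Ery 6 cells. Top2a was among the 77 (0.382 and 0.228 times). The 15 leading genes took 2.16% and 2.36% of non-globin UMIs in the RNA-poor and 1.23% and 1.15% in the RNA-rich cells, and ribosomal proteins 5.5% and 6.3% and 8.11% and 10.4%. The RNA-poor cells were not poor in globin to the same degree, with medians of 2170 and 5442 globin UMIs against 3262 and 7809.5. In library 2 this was partly set by the UMI cut. No kept cell there had under 4387 UMIs, so a cell with few non-globin UMIs was kept only with many globin UMIs. The grouping used the same UMIs as the levels, so these values are descriptions too, and cluster 3 made up 5.9% and 2.72% of the RNA-poor and 62.5% and 62.9% of the RNA-rich cells.

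The marker sums of 6 other cell types were at low levels in Ery 6 and below those of free RNA, whereas the 3 embryonic globins that mark primitive erythroblasts, mainly Hbb-bh1, summed to 25534 and 27481 non-globin CPM, against 19273 and 23089.8 in free RNA and 10093 and 7452 in Ery 4. The 10 markers of macrophages and monocytes, the cells that surround erythroblasts in the islands, summed to 193 and 118 UMIs or 80.8 and 55.4 non-globin CPM, against 1253 and 608 in free RNA and 13779 and 10757 in the monocyte and Kupffer cell cluster. Of these, 9 genes had a UMI in library 1 and 8 in library 2, Lyz2 was the most abundant (160 and 99 UMIs), and the Kupffer cell gene Vsig4 was at 0 in both, and Adgre1 in library 2, which allows up to 1.26 and 1.41 non-globin CPM. The 10 granulocyte markers summed to 459.9 and 389 non-globin CPM, led by S100a9, against 3458 and 3289 in free RNA. The sums were 81.3 and 90.6 for 8 megakaryocyte markers, led by Pf4 and with Gp6 at 0, against 503 and 456 in free RNA, and 179 and 128 for 8 hepatoblast markers, led by Afp, against 912 and 1077. They were 10.1 and 5.16 for 8 endothelial markers, led by Kdr, with Cdh5 at 0 in library 1 and Tek and Emcn at 0 in library 2, against 25.6 and 62.2, and 28.9 and 25.3 for 8 stem and progenitor markers, led by Spi1, against 241 and 234. All of these sums were higher in Ery 6 than in Ery 4, where that of the macrophage markers was 47.2 and 32.2 and that of the granulocyte markers 244 and 182 non-globin CPM, and their part in the ratios above was not tested. The 15 lost genes were also lower in Ery 6 than in free RNA, at 0.066% and 0.0652% against 0.219% and 0.268% of non-globin UMIs, and the part of free RNA in their remaining UMIs was not tested. Cells had been sorted as single cells before encapsulation, and no further doublets were removed.

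**Figure D5:**
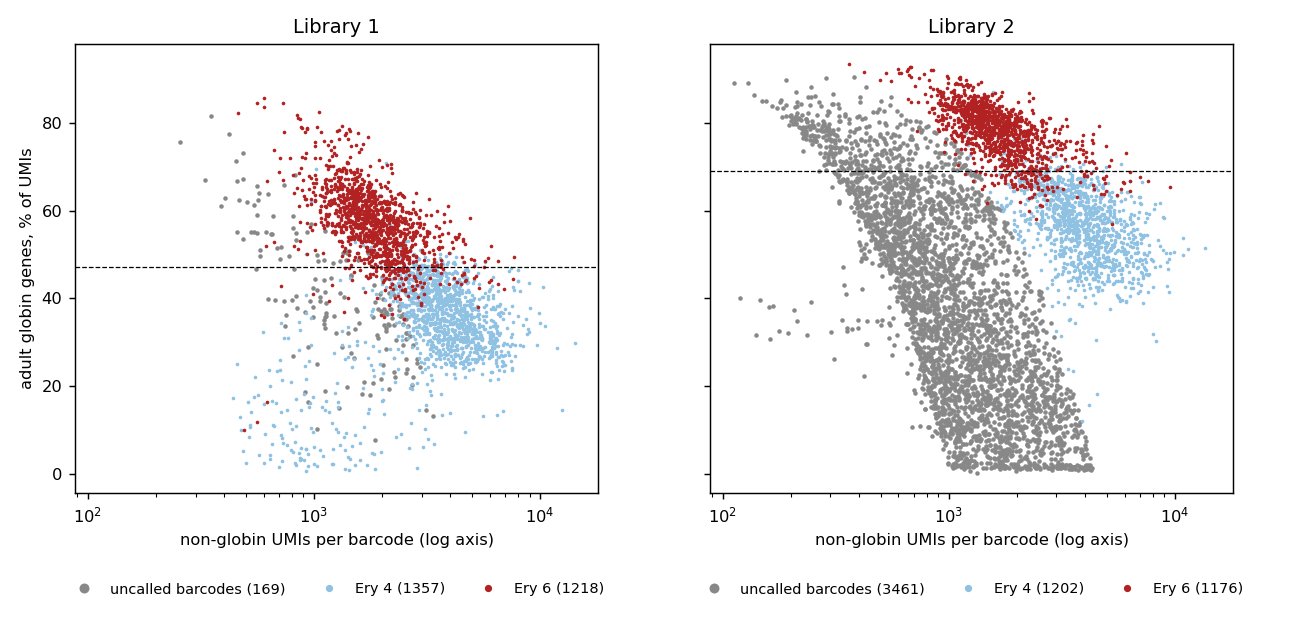
Non-globin UMIs per barcode (x axis, log scale) and share of UMIs from the 4 adult globin genes (y axis) for Ery 6 cells (red), Ery 4 cells (blue) and barcodes with at least 1000 UMIs that were not called as cells (gray) in library 1 (left) and library 2 (right). The dashed line is the 10th percentile of the globin share of Ery 6, and 55 uncalled barcodes of library 1 and 388 of library 2 lie on or above it. Library 1 also holds Ery 4 cells with little globin and little other RNA, of which library 2 has few.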

How the data were processed

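For each library the authors deposited UMI counts, for all barcodes and for called cells. Their cell table, also deposited, holds clusters, cell cycle phases and cell cycle scores. The labels name bcl2fastq 2, Cell Ranger 2.1.1, Seurat 3.2.0 and build mm10, whereas the deposited matrix header of library 1 names software version 3.0.0. The cluster numbers come from a column for a resolution of 1.2, which is not the resolution stated in the methods.

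Counts were summed over the cells of a cluster and library, divided by the non-globin UMIs and scaled to 1000000. Ratios of 2-fold in each library were called among genes with at least 50 UMIs. The 95% intervals are exact (Poisson for levels, Clopper-Pearson for shares, conditional binomial for ratios) and hold counting error alone. With 1 liver, nothing was tested. The calculation was tested on simulated data. Named genes were the label markers, the 10 most abundant genes, the 15 retained and 15 lost genes with the most extreme ratios at 100 non-globin CPM or more (without Gm, Rik and ribosomal protein genes), the leading and extreme members of each list, other list members needed to describe it, and the 3 genes that differed most between the libraries in each direction. Genes named for the finer clusters or for the spread inside Ery 6 were chosen after their values were seen. Members and lists were chosen with earlier results of these data known. Values of 2 list members are not reported here. Free RNA was taken from barcodes with 1 to 50 UMIs. Positions are from GENCODE vM21 (GRCm38). Alternatives were each library alone, filters on cells, subtraction of free RNA, other UMI minimums, scales and folds. Calculations ran in Python 3.11.15 with scipy 1.17.1, pandas 2.3.3 and numpy 2.4.6, and plots in matplotlib 3.10.9.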

Additional observations from a re-analysis of the deposited data

Results flagged for a closer look

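Barcodes with many UMIs that were not called as cells belong to no comparison above, and some had the globin share of Ery 6. Among those with at least 1000 UMIs, 55 of 169 in library 1 (32.5%, 95% confidence interval 25.5 to 40.2%) and 388 of 3461 in library 2 (11.2%, 10.2 to 12.3%) had an adult globin share at or above the 10th percentile of Ery 6, which was 47.2% and 69.1%. They drew attention because free RNA had an adult globin share of only 19.3% and 37.9%. Their median was 652 and 370.5 non-globin UMIs and 376 and 259.5 genes, and the 15 leading retained genes took 1.15% and 0.946% of their non-globin UMIs, between 0.151% and 0.156% in free RNA and 1.64% and 1.67% in Ery 6. The 15 lost genes took 0.153% and 0.243%, against 0.066% and 0.0652% in Ery 6 and 0.219% and 0.268% in free RNA. Mitochondrially encoded genes took 6.96% and 6.43%, against 3.65% and 3.8% in Ery 6 and 5.3% and 6.68% in free RNA. The most UMIs of such a barcode were 3515 and 4379, which in library 2 is just under the lowest kept cell.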

How the results depend on the processing

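No paired analysis was possible because the libraries hold a single condition and no test was made. For the 415 retained and 1334 lost genes against Ery 4, each library alone gave 480 to 541 and 1706 to 1764, and for the 779 and 2406 against Ery 3 it gave 861 to 922 and 2758 to 2881. A minimum of 200 UMIs, which leaves fewer genes, gave 694 lost genes against Ery 4 and 1352 against Ery 3. With all UMIs as the denominator there were 122 retained and 3127 lost genes against Ery 4 and 177 and 4565 against Ery 3, and with the median ratio set to 1 there were 827 and 539, and 1399 and 926. At 1.5-fold there were 731 and 2322 against Ery 4, and at 3-fold 190 and 488, and 461 and 1240 against Ery 3. Subtracting 20% free RNA, chosen after the data had been seen, gave 2128 lost genes of 4390 against Ery 4 (48.5%) and subtracting 10% gave 1964 of 5028 (39.1%), in place of 23.1%. Under the cell filters, the per-cell shares and the subtraction of free RNA, no retained gene became lost and no lost gene retained, and no called named gene changed sign where it had a ratio. After subtraction of 10% and 20% free RNA only 71 and 59 of the 95 named genes had one. The cell filters kept all gene counts within 1.5 times.

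Over Ery 3, the non-globin UMIs per Ery 6 cell (0.213, mean of the libraries) were 0.236 with the UMI minimum of library 2 in both libraries and 0.18 after subtraction of 10% free RNA. With that minimum the share of Ery 6 among cells was 18.8% in place of 22.7%. With 2 groups in place of 4 inside Ery 6, 1 gene was higher and 33 were lower in the RNA-poor cells. Uncalled barcodes with the globin share of Ery 6 numbered 18 in library 1 at 2000 UMIs or more, and 814 at 500 or more and 135 at 2000 or more in library 2. Adult globins took 16.3% of free RNA in library 1 in barcodes with 1 to 10 UMIs and 18.4% in those with 1 to 100, and 37.1% and 38.7% in library 2. Without thinning, 75.4% and 71.8% of Ery 6 cells had a UMI of Xpo7. Genes with few UMIs in Ery 6, such as Clspn, are limited by depth.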

Other observations

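The 15 leading retained genes were also counted in the primitive erythroblast-like cluster 15. There they took 0.837% and 0.816% of non-globin UMIs in libraries 1 and 2, more than in Ery 5 (0.251% and 0.221%) and less than in Ery 6 (1.64% and 1.67%). Tcp11l2 was at 488 and 421 non-globin CPM in cluster 15, against 1109 and 1014 in Ery 6 and 74.3 and 52.5 in Ery 5, and Bnip3l at 2476 and 1992, against 2629 and 2428 in Ery 6. The 15 genes had been chosen in Ery 6 and not in cluster 15.

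The deposited cell cycle phases of Ery 6 differed between the libraries. G2M was given to 900 of 1218 cells in library 1 (73.9%) and to 200 of 1176 in library 2 (17%), and G1 to 215 and 863 cells. The summed G2 and mitosis genes did not differ in that way, with 13.7 and 11.5 UMIs per cell. In library 1 the deposited G2M score was exactly 0 in 982 Ery 6 cells, of which 896 were called G2M, and in library 2 no Ery 6 cell had a score of 0 and the median was -0.00332. No state of the cell cycle was read from these calls.

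A few genes had very different levels in the libraries. In Ery 6, Hist1h2ap was at 204 and 7.04 non-globin CPM, Gm10076 at 987 and 46.9 and Gm10116 at 511 and 46, while Gm26917 was at 90.9 and 351, Hypk at 68.3 and 237 and Rpl23a at 769 and 1925. For Hist1h2ap and Gm10076 the libraries also differed in Ery 3, by 36.8 and 26.6 times, and in free RNA, by 23.8 and 23.4 times. For Gm26917 the gap differed between clusters. Its level in library 1 over that in library 2 was 0.773 in Ery 3, 0.543 in Ery 4 and 0.259 in Ery 6. The ratios between clusters are taken within a library and do not use these levels across libraries. A gap that differs between clusters, as for Gm26917, still makes the ratios of the libraries differ.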
